A study of Mus musculus with 12 samples.

Results

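The regions described are the 1 Mb bins of the mouse autosomes (GRCm38/mm10) in which no RefSeq protein-coding gene has its lowest coordinate. Bins were fixed steps of 1 Mb, kept where they lay wholly inside the span of calls on their chromosome. Of 2375 such bins on 19 autosomes, 282 (11.9%) held no coding gene start. Nucleosomes had been mapped by MNase-seq in testis germ cells of male SV129 mice aged 8 to 12 weeks, sorted by STAPUT velocity sedimentation from pools of 11 mice per collection to at least 85% purity. One fraction is labelled round spermatid and called RS here. The other, called M, carries the title meiotic spermatid, whereas the protocol speaks of a meiotic fraction. No genotype or treatment other than the enzyme is named. Each fraction was digested with 0.5, 1 or 2 U of MNase, in 2 samples per amount, with 2 times as many cells in RS as in M at each amount. Calls had been made by the authors on the pair of samples of each group jointly, which gives 6 lists for the 12 samples. With 1 list per group, no difference could be tested against replicate error, and none of the differences below has a replicate check. Intervals are 95% intervals for counting error only, and they are too narrow because neighbouring calls overlap.

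Micrococcal nuclease cuts the linker DNA between nucleosomes, and the fragments left over come from DNA wrapped on histones. Long stretches without coding genes, often called gene deserts, are typically rich in A and T, replicate late and are packed as heterochromatin at the nuclear edge in somatic cells. Genes of neuronal adhesion often lie at their borders. Round spermatids are the haploid cells in which histones will be exchanged for transition proteins and protamines, whereas meiotic cells still pair and recombine their chromosomes. How readily the enzyme opens such regions therefore bears on how their chromatin is packed at each stage, and the titration shows how a list changes with the enzyme.

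Promoters in these bins are mostly those of long non-coding RNA genes. The RefSeq promoter table (GRCm38.p6, 250 bases before to 50 after a gene start) held 440 windows of 368 genes there outside dense windows, of which 394 belonged to lncRNA genes. A further 46 belonged to 34 coding genes that are transcribed towards lower coordinates or start beside a boundary, since the bins were chosen by lowest coordinate. The median GC content of the 440 windows was 43.5%, against 53.0% for 30438 windows in the other autosomal bins. A run of AAAAAA, or TTTTTT for the other strand, was present in 29.8% of them, against 18.8% of windows in the other bins and 19% of all 30878 windows. Calls touched 37 of the 440 windows (8.41%), and 2017 of 30438 in the other bins (6.63%). Calls of at least 2 lists touched 5 of the 440 windows (1.14%), against 202 of 30438 in the other bins (0.664%) and 0.670% of all windows. Such calls touch the same window and need not mark the same nucleosome. One window per gene is shown for 4 such genes, 5′ to 3′ in the direction of the gene, with bases inside a call of any list in capitals.
4933402J10Rik: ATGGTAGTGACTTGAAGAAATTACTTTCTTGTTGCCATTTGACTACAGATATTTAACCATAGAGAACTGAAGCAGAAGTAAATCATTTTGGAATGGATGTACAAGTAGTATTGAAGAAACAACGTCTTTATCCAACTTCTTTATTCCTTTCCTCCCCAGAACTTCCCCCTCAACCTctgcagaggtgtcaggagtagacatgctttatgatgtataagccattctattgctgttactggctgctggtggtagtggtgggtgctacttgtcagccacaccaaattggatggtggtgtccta
Celf2: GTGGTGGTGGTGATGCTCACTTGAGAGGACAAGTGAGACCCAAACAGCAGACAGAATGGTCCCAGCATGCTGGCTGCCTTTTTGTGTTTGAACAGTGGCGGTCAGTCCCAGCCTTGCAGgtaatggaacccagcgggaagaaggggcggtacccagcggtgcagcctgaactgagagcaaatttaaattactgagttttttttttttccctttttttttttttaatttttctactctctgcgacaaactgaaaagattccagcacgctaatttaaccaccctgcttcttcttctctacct
1110015O18Rik: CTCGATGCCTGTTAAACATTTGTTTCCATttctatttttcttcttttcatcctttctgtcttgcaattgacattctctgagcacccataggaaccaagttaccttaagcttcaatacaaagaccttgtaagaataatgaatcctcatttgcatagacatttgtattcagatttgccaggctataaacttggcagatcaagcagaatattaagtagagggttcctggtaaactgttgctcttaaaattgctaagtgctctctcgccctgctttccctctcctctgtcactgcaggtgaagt
Gm40924: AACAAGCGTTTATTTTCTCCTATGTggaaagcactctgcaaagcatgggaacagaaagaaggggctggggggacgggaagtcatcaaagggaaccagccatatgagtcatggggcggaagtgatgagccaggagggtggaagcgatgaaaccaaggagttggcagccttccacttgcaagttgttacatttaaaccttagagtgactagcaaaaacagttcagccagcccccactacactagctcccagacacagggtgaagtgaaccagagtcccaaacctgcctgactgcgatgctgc
The first belongs to a lncRNA gene and lies at chr5:59985953-59986252 on the minus strand. It had 2 calls in RS at 0.5 U, 1 call in M at 0.5 U and 2 in M at 1 U, and 176 of its 300 bases lay inside a call. The window of Celf2, an RNA-binding protein that regulates splicing, lies at chr2:7395951-7396250 on the minus strand and had 2 calls in RS at 1 U and 1 in M at 2 U. Its called stretch of 119 bases lies upstream of runs of T, which fell outside the calls. The lncRNA windows of 1110015O18Rik (chr3:4798458-4798757, plus strand) and Gm40924 (chr13:39923162-39923461, minus strand) had 1 call in each of 2 lists. The calls touched only 29 and 25 bases at the upstream edge of these windows. All these calls stood at 6 or 7 implied reads, near the minimum explained below, and they are single events rather than a pattern of promoters.

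The lists differed widely in size. Outside dense windows, 10 kb stretches with more than 20 calls in any list, the autosomal bins held 162033, 32769 and 19997 calls in RS from 0.5 to 2 U and 33409, 49191 and 54231 calls in M. Of these, 24365, 3986 and 2205 calls in RS and 6448, 7502 and 6835 calls in M lay in bins without coding genes. The p-value of each call matched a Poisson tail of at least 6 reads, whichever list it came from, so each call implies a read count, but the number of sequenced reads is unknown. The Poisson mean that matched was 0.696, 0.472 and 0.409 reads in RS and 0.434, 0.484 and 0.507 in M from 0.5 to 2 U. To compare lists of such different size, the calls of a bin were divided by the mean of all 2375 bins of the same list, a ratio called relative density here. With the same minimum of 6 reads at differing means, this ratio may not make the lists fully comparable, which was not tested.

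Bins without coding genes were denser in calls than the average bin where little enzyme was used, and more so in M than in RS. Their relative density in RS was 1.27 at 0.5 U (1.25 to 1.28), 1.02 at 1 U (0.993 to 1.06) and 0.929 at 2 U (0.890 to 0.968). In M it was 1.63 (1.59 to 1.67), 1.28 (1.26 to 1.31) and 1.06 (1.04 to 1.09). The ratio of RS to M was thus below 1 at each amount, with log2 ratios of -0.36 (-0.40 to -0.32) at 0.5 U, -0.33 (-0.38 to -0.27) at 1 U and -0.19 (-0.26 to -0.13) at 2 U. The log2 ratio of 2 U to 0.5 U was -0.45 (-0.51 to -0.39) in RS and -0.61 (-0.66 to -0.57) in M. The span over which the enzyme moved the value within a stage was therefore larger than the gap between the stages at any single amount. RS had more cells per unit of enzyme. At equal MNase per cell the log2 ratio was -0.67 for RS with 1 U over M with 0.5 U. It was -0.47 for RS with 2 U over M with 1 U. This does not match enzyme per amount of DNA, since RS cells are haploid and the DNA content of M is not given. In the opposite pairing, with less enzyme in RS, the intervals of the stages overlapped. Relative density was 1.27 (RS, 0.5 U) against 1.28 (M, 1 U), and 1.02 (RS, 1 U) against 1.06 (M, 2 U). Which pairing makes the stages comparable was not tested.

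At 0.5 U in both stages, and at 1 U in M, the value fell with gene content in steps rather than only with a first gene. Bins with exactly 1 coding gene start, of which there were 289, had relative densities of 1.18, 0.987 and 0.898 in RS from 0.5 to 2 U and 1.36, 1.15 and 1.05 in M. They were lower than the bins without coding genes in each list, by less than counting error at 1 U and 2 U in RS and at 2 U in M. The order in those lists depended on the 5 bins with antigen receptor segments, described below. Without them, the bins without coding genes stood at 0.988 and 0.880 in RS at 1 U and 2 U and at 1.02 in M at 2 U. They were then level with the bins of 1 start in RS at 1 U, and lower at 2 U in both stages with overlapping intervals. With 1 to 5 starts the values were 1.09, 0.988 and 0.952 in RS and 1.15, 1.08 and 1.04 in M. At the other end, the 244 bins with over 20 starts had 0.751, 0.846 and 0.907 in RS and 0.534, 0.673 and 0.785 in M. At 0.5 U the density decreased with each class of gene content in both stages. In RS at 1 U there was no such order, with 1.02, 0.988, 1.04, 1.04 and 0.846 from 0 to over 20 starts. At 2 U in RS the highest class was that of 11 to 20 starts, at 1.12, and bins without coding genes and those with over 20 starts were the lowest, within counting error of those with 1 to 5 starts. Without the bins with antigen receptor segments, the bins without coding genes had 0.880 (0.842 to 0.919) there. That interval lay below the one of bins with 1 to 5 starts (0.930 to 0.974).

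**Figure D1:**
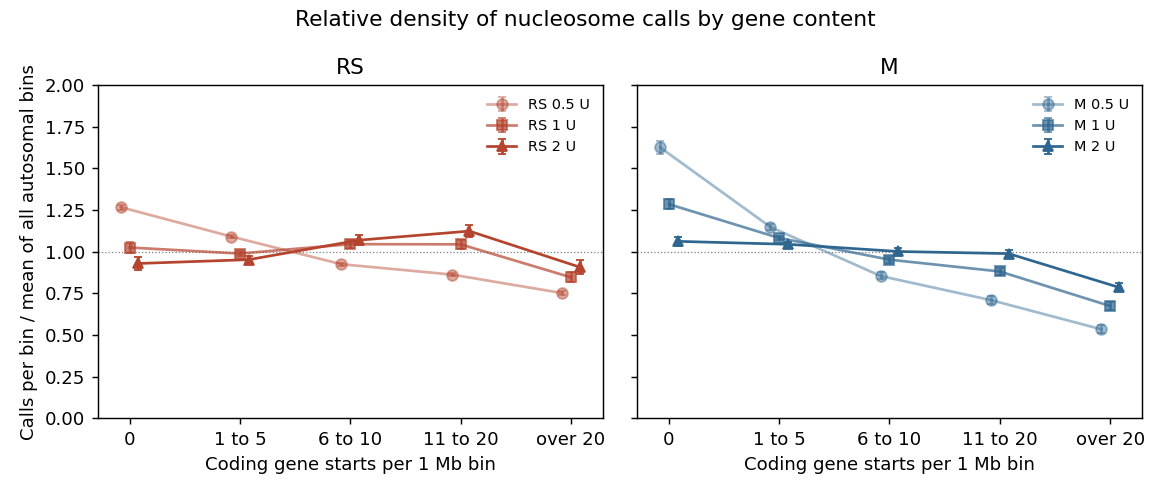
Relative density of calls (calls per 1 Mb bin over the mean of all autosomal bins of the list) by number of coding gene starts per bin, in RS (left) and M (right), with 1 line per MNase amount. Bars are 95% Poisson intervals for counting error. The bins with 0 starts stand at 1.27, 1.02 and 0.929 in RS and at 1.63, 1.28 and 1.06 in M from 0.5 to 2 U, so the lines are steepest at 0.5 U. These values include the 5 bins with antigen receptor segments.

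The shift was spread over most of the 282 bins at low enzyme. At 0.5 U, 243 of them (86.2%) were above the mean of the list in RS, against 46.6% of all 2375 bins, and 240 (85.1%) in M, against 41.2% of all bins. At 1 U the numbers were 131 in RS, against 44.4% of all bins, and 218 in M, against 46.2%. At 2 U they were 104 in RS, against 40.8%, and 142 in M, against 44.9%. At 1 U and 2 U in RS the bins without coding genes were thus above the mean about as often as any bin, at 46.5% and 36.9%. Above the mean in all 6 lists were 21 bins (7.45%), against 5.35% of all bins. Below it in all 6 were 2 bins (0.709%), against 12% of all bins. All of the 282 bins had at least 1 call in each list.

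Single bins varied widely. Calls per bin had a lowest, median and highest value of 35, 84 and 347 in RS at 0.5 U, 2, 13 and 96 at 1 U and 1, 7 and 93 at 2 U. In M they were 5, 22 and 132 at 0.5 U, 9, 25 and 186 at 1 U and 7, 23 and 195 at 2 U. The highest value in every list belonged to the same bin of the immunoglobulin heavy chain locus, at 115 Mb of chromosome 12. Such bins qualify because the V segments from which antibody genes are joined are not annotated as protein-coding genes. Without the 5 bins with antigen receptor segments, the variance of calls over their mean was 2.64, 1.73 and 1.84 in RS and 2.34, 2.07 and 2.52 in M, where independent counts would give 1. Spearman's rho over these 277 bins, computed for the 15 pairs of lists, lay between 0.0322 and 0.275. At 7 to 84 calls in a median bin such weak values give no common order of the bins.

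**Figure D2:**
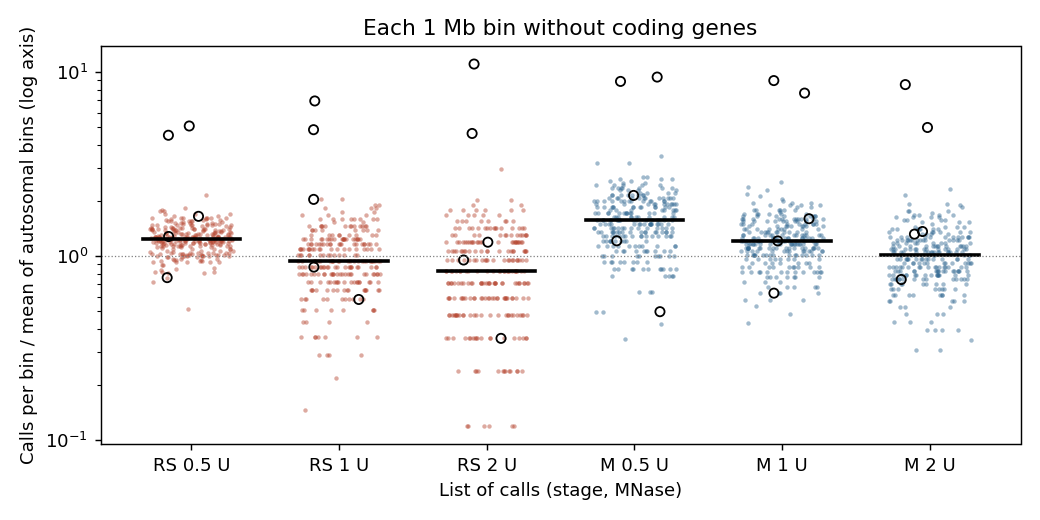
Calls per bin over the mean of autosomal bins (log axis) for each of the 282 bins without coding genes, by list. Black lines are medians and open circles are the 5 bins with antigen receptor segments, 2 of which stand far above the rest in each list; medians lie above 1 at 0.5 U in both stages and below 1 in RS at 1 U and 2 U.

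Bins with antigen receptor segments made up 5 of the 282. The heavy chain bins, at chr12:114000001-115000000 and chr12:115000001-116000000, hold many Ighv segments, and lie between Adam6a and the zinc finger gene Zfp386. The first had 309, 67 and 39 calls in RS from 0.5 to 2 U and 125, 159 and 114 in M. The second had 347, 96 and 93 calls in RS and 132, 186 and 195 in M. Together they stood at 4.81, 5.91 and 7.84 times the mean bin in RS and at 9.13, 8.33 and 6.77 times in M, so their relative density was higher at 2 U than at 0.5 U in RS and lower in M. These counts leave out 16 dense windows of the same bins. With those windows the bins held 1442, 502 and 357 calls in RS and 648, 853 and 766 in M, and stood at 9.95, 15.9 and 18 times the mean in RS and at 20.3, 18.4 and 15.1 times in M. The other segment bins, with kappa light chain segments on chromosome 6 and T cell receptor alpha segments on chromosome 14, stood at 1.23, 1.16 and 0.831 in RS and 1.28, 1.14 and 1.14 in M. Without all 5, the remaining 277 bins had relative densities of 1.24, 0.988 and 0.880 in RS and 1.57, 1.24 and 1.02 in M. The stage difference was as large without them, since log2 RS over M averaged over the 3 amounts was -0.29 (-0.32 to -0.26), and also -0.29 with them (-0.32 to -0.26).

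Each chromosome was then taken by itself, with its bins without coding genes set against its other bins. At 0.5 U they were denser on 19 of 19 autosomes in RS, with ratios from 1.08 on chromosome 13 to 1.81 on chromosome 12 and a median of 1.27. In M at 0.5 U they were denser on 19 of 19, from 1.23 on chromosome 18 to 2.99 on chromosome 11, with a median of 1.74. At 1 U the numbers were 9 of 19 in RS (median 0.994) and 19 of 19 in M (median 1.32). At 2 U they were 5 of 19 in RS (median 0.913) and 12 of 19 in M (median 1.09). RS was below M on 19 autosomes at 0.5 U, on 19 at 1 U and on 16 at 2 U. Within a stage, the ratio was lower at 2 U than at 0.5 U on 18 of 19 autosomes in RS and on 19 of 19 in M. The order of the lists was therefore not set by a few chromosomes, although chromosomes of 1 list share its library and are not replicates.

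**Figure D3:**
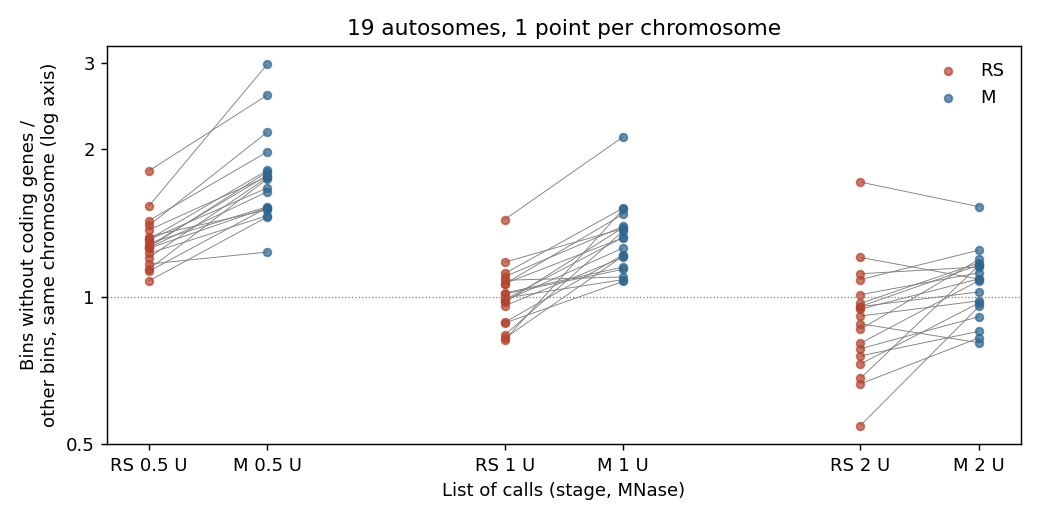
Mean calls in bins without coding genes over mean calls in the other bins of the same chromosome (log axis), 1 point per autosome, with RS left of M at each MNase amount and lines joining the same chromosome. At 0.5 U all points lie above 1, and RS lies below M on 19, 19 and 16 autosomes from 0.5 to 2 U.

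The stage difference was also visible bin by bin. For each bin the ratio of RS to M was taken with 0.5 added to each count, among bins with at least 10 calls over both lists. At 0.5 U, 15 of 282 bins (5.32%) were lower in RS by 2-fold or more, against 3.04% of all bins tested, and 3 (1.06%) were higher, against 15% of all. At 1 U, 35 (12.4%) were lower in RS, against 8.01%, and 4 (1.42%) were higher, against 10.7%. At 2 U, 52 (18.4%) were lower in RS, against 13.2%, and 13 (4.61%) were higher, against 10.4%. A bin without coding genes was thus seldom higher in RS, whereas the excess of bins lower by 2-fold was small. Lower in RS at all 3 amounts were 87 of 282 bins (30.9%), against 14.9% of all bins. Higher in RS at all 3 were 4 (1.42%), against 17.9% of all bins. With more enzyme most bins lost relative density in both stages: 207 of 282 (73.4%) were lower at 2 U than at 0.5 U in RS, against 50.1% of all bins tested, and 235 (83.3%) in M, against 46.9%.

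**Figure D4:**
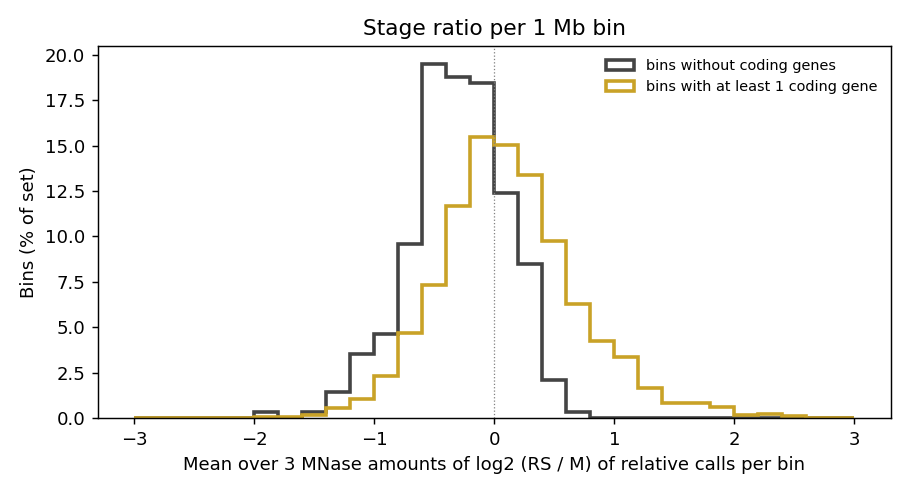
Share of bins by the mean over 3 MNase amounts of the log2 ratio of RS to M of relative calls per bin, for the 282 bins without coding genes and the 2093 other autosomal bins. The bins without coding genes lie mostly below 0 and lack most of the upper tail of the other bins: 1.42% of them are higher in RS at all 3 amounts, against 20.1% of the other bins.

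The bins with the largest ratios towards lower values in RS at all 3 amounts had 1 to 4 calls each in RS at 2 U. The bin at chr8:52000001-53000000, between the teneurin gene Tenm3 and Aga, which encodes a lysosomal amidase, had 56, 5 and 1 calls in RS and 24, 49 and 18 in M (mean log2 ratio -1.95). The bin at chr1:147000001-148000000, between Brinp3 and the phospholipase gene Pla2g4a, had 100, 12 and 1 calls in RS and 33, 31 and 28 in M (-1.42). The bin at chr5:59000001-60000000 lies 867 kb from the protocadherin gene Pcdh7 and holds the lncRNA gene 4933402J10Rik, whose promoter is shown above, and it had 109, 7 and 3 calls in RS and 34, 47 and 24 in M (-1.35). In these bins the relative deficit in RS was greatest at 2 U or 1 U, where RS had few calls. A bin in the desert between Pcdh20 and Pcdh9, at chr14:91000001-92000000, had 64, 14 and 1 calls in RS and 21, 32 and 25 in M (-1.31). The bin at chr3:11000001-12000000, between the sorting nexin gene Snx16 and Ralyl, had 74, 8 and 4 calls in RS and 24, 41 and 32 in M (-1.26). The bin at chr4:38000001-39000000, 1048 kb from Lingo2, a leucine-rich repeat membrane protein of neurons, had 81, 6 and 3 calls in RS and 26, 35 and 19 in M (-1.19).

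The 4 bins higher in RS at all 3 amounts had smaller ratios. The largest was at chr18:26000001-27000000, 245 kb from Celf4, an RNA-binding protein of neurons, with 94, 20 and 7 calls in RS and 18, 21 and 9 in M (mean log2 ratio 0.56). The bin at chr8:6000001-7000000, between the ileal bile acid transporter gene Slc10a2 and the ephrin gene Efnb2, had 70, 16 and 6 calls in RS and 11, 14 and 15 in M (0.43). The bin at chr4:37000001-38000000, 48.3 kb from Lingo2, had 84, 10 and 12 calls in RS and 16, 11 and 20 in M (0.42). It adjoins the bin at 38 Mb that was among the lowest in RS, so neighbours in the same desert lay at opposite ends of the range. The fourth, at chr18:85000001-86000000, next to Fbxo15 and 395 kb from Neto1, an auxiliary subunit of kainate receptors, had 84, 20 and 10 calls in RS and 15, 24 and 18 in M (0.37). At the 6 to 24 calls that these bins had in all lists but RS at 0.5 U, counting error alone is wide.

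Outside the heavy chain locus, the densest bins were less than 2 times the mean. Over the 6 lists the bin at chr1:112000001-113000000 averaged 1.89 times the mean, with 101, 22 and 13 calls in RS and 45, 33 and 44 in M. Its neighbour at chr1:113000001-114000000 averaged 1.76, with 84, 25 and 15 calls in RS and 28, 33 and 49 in M. Both belong to a run of 3 bins between Dsel, an enzyme of dermatan sulfate synthesis, and Cntnap5a, a member of the neurexin family. The bin at chr3:42000001-43000000, between D3Ertd751e and the protocadherin gene Pcdh10 and with no gene of any kind starting in it, averaged 1.80, with 147, 15 and 15 calls in RS and 37, 30 and 39 in M. The bin at chr12:67000001-68000000, into which Mdga2, which encodes a regulator of synaptic neuroligins, reaches by 223 kb, averaged 1.71, with 97, 22 and 16 calls in RS and 27, 45 and 29 in M.

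The lowest bins included one with antigen receptor segments and others into which a coding gene reached. The T cell receptor alpha bin at chr14:53000001-54000000 averaged 0.595 of the mean, with 52, 8 and 3 calls in RS and 7, 13 and 17 in M. The bin at chr15:19000001-20000000, into which the cadherin gene Cdh10 reaches by 16.2 kb, averaged 0.680, with 61, 9 and 1 calls in RS and 7, 18 and 24 in M. The bin at chr5:10000001-11000000, 275 kb from the metabotropic glutamate receptor gene Grm3, averaged 0.692, with 52, 8 and 1 calls in RS and 18, 12 and 19 in M. The bin at chr10:64000001-65000000, with the alpha-catenin gene Ctnna3 and the synaptic adhesion gene Lrrtm3 nested in it, averaged 0.749, with 67, 11 and 3 calls in RS and 9, 22 and 15 in M. The bin at chr7:53000001-54000000, 835 kb from Luzp2, averaged 0.778, with 71, 9 and 5 calls in RS and 14, 16 and 14 in M.

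The 282 bins fell into 192 runs of adjacent bins. Of these runs, 128 were single bins, 43 had 2 bins, 16 had 3 and 5 had 4. Single bins had relative densities of 1.20, 0.979 and 0.868 in RS and 1.5, 1.19 and 1.01 in M. The 26 bins with such a bin on both sides had 1.31, 1.12 and 0.904 in RS and 1.75, 1.26 and 1.13 in M. The interior of a run was thus higher than a single bin in each list, with intervals that did not overlap at 0.5 U in both stages. Without the segment bins, relative density in M at 0.5 U was 1.51 (1.46 to 1.57) for single bins, 1.6 (1.53 to 1.68) in runs of 2, 1.65 (1.55 to 1.75) in runs of 3 and 1.68 (1.54 to 1.84) in runs of 4. In RS at 0.5 U it was 1.20 for single bins, 1.29 in runs of 2, 1.31 in runs of 3 and 1.11 (1.05 to 1.17) in runs of 4, so the 20 bins of the longest runs were the lowest there. The runs of 4 lay between Api5 and Iftap on chromosome 2, with the synaptic adhesion gene Lrrc4c reaching in, between Dmac1 and the melanin synthesis gene Tyrp1 on chromosome 4, with the receptor phosphatase gene Ptprd reaching in, between Dctd and Aga on chromosome 8, with Tenm3 reaching in, between Pcdh20 and Pcdh9 on chromosome 14, and between Celf4 and Pik3c3 on chromosome 18. Their relative densities at 0.5 U were 1.03, 1.21, 1.02, 1.07 and 1.22 in RS and 1.72, 2.08, 1.24, 1.88 and 1.49 in M, in that order. At 1 U they were 1.27, 1.20, 0.833, 0.924 and 0.960 in RS and 1.18, 1.30, 1.34, 1.18 and 1.03 in M. At 2 U they were 1.10, 0.891, 0.445, 0.594 and 0.920 in RS and 1.17, 0.942, 0.865, 1.02 and 0.953 in M. RS was below M in each of the 5 runs at 0.5 U and 2 U and in 4 of them at 1 U, the exception being the run on chromosome 2.

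Some of these bins lie inside long genes that start elsewhere. A coding gene reached into 73 of the 282, and 209 held none. Where a gene reached in, relative densities were 1.21, 1.02 and 0.921 in RS and 1.44, 1.14 and 0.998 in M. Where none did, they were 1.29, 1.03 and 0.931 in RS and 1.69, 1.34 and 1.08 in M. The segment bins all fall into the 209. Without them, the remaining 204 had 1.25, 0.977 and 0.865 in RS and 1.62, 1.27 and 1.03 in M. The bins with a gene reaching in were then lower in M at 0.5 U and 1 U, and within counting error of the others in M at 2 U and in RS at each amount. The genes that reached in numbered 70. Ptprd filled 2212 kb of these bins, with 169, 37 and 10 calls in RS and 53, 41 and 57 in M. Lrp1b, a lipoprotein receptor relative, filled 1654 kb with 132, 23 and 15 calls in RS and 39, 47 and 27 in M. Rbfox1, a neuronal splicing factor, filled 1412 kb with 136, 12 and 27 calls in RS and 14, 32 and 57 in M. The relative density of Rbfox1 was 1.41, 0.616 and 2.27 in RS and 0.705, 1.09 and 1.77 in M, so in both stages it was higher at 2 U than at 0.5 U, unlike most of these bins.

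Distance to the nearest coding gene ordered the calls most clearly in M at 0.5 U. Outside the segment bins, positions more than 500 kb from a coding gene covered 158 Mb of the bins without coding genes. Their relative density was 1.28, 0.977 and 0.853 in RS and 1.69, 1.30 and 1.02 in M. Positions up to 50 kb away covered 3.69 Mb and had 1.22, 0.943 and 0.837 in RS and 0.848 (0.616 to 1.14), 1.18 and 0.866 in M. Positions 50 to 200 kb away had 1.16, 1.08 and 0.878 in RS and 1.23, 1.19 and 0.969 in M. In the other bins, the 38.6 Mb more than 500 kb from a coding gene had 1.30, 1.04 and 0.790 in RS and 1.62, 1.24 and 1.02 in M, close to the same distance in bins without coding genes. Inside coding genes the sets were apart. Gene sequence within bins without coding gene starts had 1.22, 1.04 and 0.900 in RS and 1.41, 1.14 and 1.01 in M, against 0.859, 0.926 and 0.952 in RS and 0.689, 0.787 and 0.873 in M for gene sequence in the other bins. The intervals of the 2 kinds of gene sequence overlapped in RS at 2 U and in no other list.

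**Figure D5:**
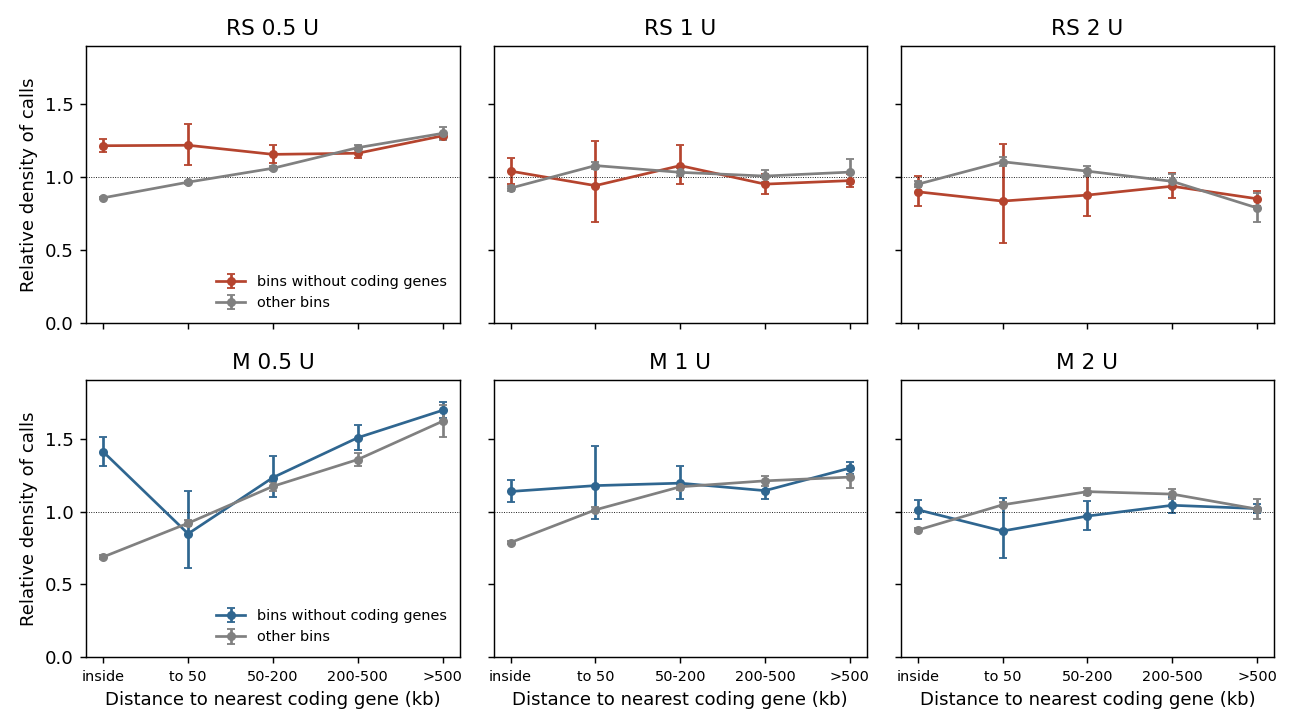
Relative density of calls by distance to the nearest coding gene, for bins without coding genes (coloured) and other autosomal bins (grey), without bins with antigen receptor segments, in 1 panel per list with RS above M. Bars are 95% Poisson intervals; in M at 0.5 U bins without coding genes stand at 0.848 up to 50 kb, 1.23 at 50 to 200 kb, 1.51 at 200 to 500 kb and 1.69 beyond 500 kb, and inside genes they stand at 1.41 against 0.689.

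The bins were not empty of annotation. They held 1633 starts of other genes, with a median of 4 per bin and up to 102, and 10 bins held none of any kind. Pseudogenes numbered 608, lncRNA genes 463 and V segments 236. Bodies of lncRNA genes covered 6.70% of the bins outside the segment bins and held 6.68%, 6.78% and 7.16% of the calls in RS and 6.40%, 6.76% and 6.62% in M. The share of sequence lay within the counting interval of the share of calls in each list. Pseudogenes covered 0.747% and held 0.682%, 0.980% and 1.56% of the calls in RS and 1.01%, 1.20% and 1.36% in M. Their share of calls was above their share of sequence in M at each amount and in RS at 2 U, where the interval was 1.07% to 2.19%. The near identity of pseudogenes to their parent genes makes calls there uncertain. Of 25 miRNA hairpins of the RefSeq table in these bins, such as Mir181a-1 and Mir195b, none was touched by a call of any list, and 6 had a call within 1 kb. The number expected for so few and such short sequences was not computed, so these counts are not read as a trait of hairpins.

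Coding genes at the borders of these bins were counted in 10 families, by the prefix of the gene symbol. The nearest gene on each side of a bin and the genes reaching in gave 414 genes. Cadherins and protocadherins were 17 of them (4.11%), against 0.436% of 20665 autosomal coding genes. Contactins and neurexins were 6 (1.45%, against 0.0774%), leucine-rich repeat adhesion genes 8 (1.93%, against 0.106%), and teneurins and latrophilins 6 (1.45%, against 0.0339%). Those 6 were Tenm2, Tenm3, Tenm4, Adgrl2, Adgrl3 and Adgrl4, and Adgrl4 is taken in by its symbol alone. They were 85.7% of the 7 autosomal genes with the prefix Tenm or Adgrl. Potassium channel genes were 6 (1.45%, against 0.445%) and ionotropic glutamate receptor genes 3 (0.725%, against 0.0871%). Zinc finger genes were 6 (1.45%, against 1.91%) and homeobox and SOX genes 2 (0.483%, against 0.527%), near or below their general share. Olfactory and vomeronasal receptor genes, 1104 and 354 on the autosomes, gave 0 each. These families were chosen with the known content of such regions in mind, and the counts describe the regions, not the germ cells.

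Calls in bins without coding genes repeated between the stages less often than calls elsewhere. A call was counted as shared when a midpoint of the other stage at the same amount lay within 73 bp, leaving out the segment bins and dense windows. Of RS calls, 0.955%, 1.70% and 2.29% were shared with M from 0.5 to 2 U in bins without coding genes, against 1.22%, 3.62% and 5.07% in the other bins. Of M calls, 3.28%, 0.917% and 0.760% were shared with RS, against 5.78%, 2.60% and 2.05% in the other bins. The intervals did not overlap in any of these 6 pairs. The sequence within 73 bp of a call of the other list was 0.246%, 0.282% and 0.257% of the bins without coding genes for M and 0.923%, 0.154% and 0.0833% for RS, so sharing was above that share of sequence in each list. In the other bins that share was 0.141%, 0.217% and 0.246% for M and 0.713%, 0.151% and 0.0937% for RS. In bins without coding genes, 31 of 224, 30 of 64 and 24 of 47 shared RS calls lay where all 6 lists had a call. For M these were 33 of 201, 32 of 65 and 30 of 49. Several calls of a list can stack at 1 place, so these shares and their intervals do not count independent positions.

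The strength of calls, read from the implied reads, was compared with that in the other bins. Calls of more than 6 implied reads were 26.8%, 21.7% and 19.4% of the calls in bins without coding genes in RS and 25.3%, 23.3% and 23.3% in M, against 26.6%, 21.4% and 20.1% in RS and 26.4%, 23.5% and 24.5% in M in the other bins. Calls of 10 or more reads were rare, at 0.464%, 1.08% and 0.726% in RS and 0.775%, 0.613% and 0.717% in M. In the other bins they were 0.587%, 1.04% and 1.54% in RS and 1.18%, 0.962% and 1.00% in M. The intervals did not overlap in RS at 2 U and in M at 0.5 U and 1 U, where bins without coding genes had the lower share. Calls in the 5 segment bins were stronger, with 39.5%, 44.1% and 35.3% above 6 reads in RS and 35.0%, 42.8% and 45% in M. Without those bins, 26.3%, 20.4% and 18.2% of calls were above 6 reads in RS and 24.8%, 22.1% and 22.0% in M. The share of 10 or more reads was then 0.358%, 0.927% and 0.731% in RS and 0.782%, 0.423% and 0.481% in M, below that of the other bins with intervals that did not overlap in all lists but RS at 1 U. Such strong calls fell into few places. In RS at 2 U, 16 calls in bins without coding genes had 10 or more reads, and 6, 3 and 4 of them lay in single windows of 1 kb on chromosomes 4, 12 and 16. The shares of 10 or more reads thus rest partly on the same places counted repeatedly. Their intervals treat calls as independent and are too narrow to compare the sets. Only 4 windows of 1 kb had them in all 6 lists. At chr4:64497737-64498061, in the bin between Tnfsf8 and Pappa that also holds part of the tenascin gene Tnc, there were 5, 6 and 6 strong calls in RS and 6, 5 and 6 in M, with up to 156 implied reads, and the adjoining window had 1 in each list. At chr12:67059212-67059746, inside the body of Mdga2, 5, 9 and 3 such calls were found in RS and 7, 4 and 5 in M. At chr16:86820942-86821221, between Adamts5, a matrix protease gene, and N6amt1, there were 6, 6 and 4 in RS and 7, 3 and 5 in M. These places were picked after their values were seen. Strong calls in 1 list only were found in 86 such windows.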

How the data were processed

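Nucleosome calls from MNase-seq were deposited as 6 lists, 1 per stage and MNase amount, each made by the authors from both samples of its group. Each call is an interval with a p-value, and the p-values were used as deposited by the authors. Reads had been aligned with STAR 2.5.2a to GRCm38/mm10, per the submitters' processing notes, and the caller is not given in the sources used here. Digestion ran for 7.5 min at 37 °C, per the labels' protocols.

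Each call was placed by its start plus 70 bp in fixed 1 Mb bins. 10 kb windows with more than 20 calls in any list were left out of all lists alike. Gene positions came from RefSeq (GRCm38.p6). Implied reads were read from the p-values as Poisson tails. Intervals are exact Poisson for densities, exact Clopper-Pearson for shares and normal for log2 ratios, at 95%, and cover counting error only. No replicate lists were used, so there was no test, and a two-sided sign flip over the 3 amounts could not give a p below 0.25. The files hold no expression values, so neither fraction could be checked against marker genes.

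Named bins were the 6 with the highest and the 6 with the lowest mean relative density over the 6 lists, up to 6 in each direction with the largest mean log2 ratio of RS to M among bins with at least 60 calls and the same sign at all 3 amounts, and the 5 longest runs. Genes named with them flank or reach into them. One of the lowest bins is not reported here. The bins, the families and these rules were chosen with earlier results of these data known. Alternatives were no window left out, only calls above 6 implied reads, overlapping calls merged, bins of 0.5 Mb, no coding gene overlapping, bins at chromosome ends and empty bins treated differently, other folds and distances, an amount left out and equal MNase per cell. Leaving out segment bins, adding end bins and counting the dense windows of the heavy chain bins were chosen after seeing the data. On simulated data the density of 2375 bins was recovered to within 0.0263, and 100% of 5000 p-values were given their read count. Simulated counts were independent and simulated p-values were exact Poisson tails. The simulation thus checks the computation only, not its accuracy on overlapping calls. Python 3.11.15, numpy 2.4.6, pandas 2.3.3, scipy 1.17.1 and matplotlib 3.10.9 were used.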

Additional observations from a re-analysis of the deposited data

Results flagged for a closer look

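The left-out windows inside bins without coding genes held many calls that no comparison above used. The window at chr2:98660001-98670000 held 56, 56 and 55 calls in RS from 0.5 to 2 U and 56, 56 and 54 in M, almost the same number in lists of very different size. The left-out windows of chromosome 12, in the heavy chain bins, held 786, 339 and 225 calls in RS and 391, 508 and 457 in M.

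The X chromosome was outside the autosomal comparison. Its 16 bins without coding genes held 52, 12 and 10 calls in RS and 66, 57 and 29 in M. The heavy chain bins, pooled, had a log2 ratio of 2 U to 0.5 U of 0.71 in RS and -0.43 in M. From 0.5 to 2 U, relative density at chr12:115000001-116000000 went from 5.09 to 11.0 in RS and from 9.38 to 8.54 in M. At chr12:114000001-115000000 it went from 4.53 to 4.63 in RS and from 8.89 to 4.99 in M. The rise in RS thus lay mostly in 1 bin and the fall in M mostly in the other. Each ratio rests on 1 list per amount, and the difference between the stages was not tested.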

How the results depend on the processing

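No paired analysis was possible because each list pools both samples of its group, and for the same reason no replicate could be left out. All 52 log2 ratios recomputed under the alternatives stayed negative, but all reuse the same 6 lists. Leaving out empty bins kept 2374 of 2375 bins and left the ratios as they were. The means without an amount and at equal MNase per cell only average ratios that were negative already. With no window left out, relative densities were 1.24 and 0.989 in RS at 0.5 and 1 U and 1.54, 1.24 and 1.03 in M, so RS at 1 U lay below 1. The log2 ratio of RS to M at 0.5 U was then -0.31. Shared calls were 1.19%, 3.13% and 4.84% in RS and 4.15%, 1.69% and 1.58% in M. In the other bins they were 3.93%, 11.2% and 15.5% in RS and 15.5%, 8.35% and 6.94% in M, so the gap in sharing was wider than with dense windows left out. With only calls above 6 implied reads, M had 1.57 at 0.5 U and 1.02 at 2 U, the log2 ratio was -0.30 at 0.5 U and -0.26 on average, and bins past 2-fold were 52 lower (18.6%, against 14.1% of all bins tested) and 24 higher (8.57%, against 20.9%) in RS at 0.5 U, 13 of 105 higher (12.4%, against 15.2%) at 1 U, and 12 of 53 lower (22.6%, against 22.2%) and 6 higher (11.3%, against 17.2%) at 2 U. With overlapping calls merged, 1 bin was higher at 1 U (0.355%, against 8.51%) and 33 were lower at 2 U (11.7%, against 9.34%). With bins of 0.5 Mb, densities were 1.23 in RS at 0.5 U and 1.47 and 1.23 in M at 0.5 and 1 U; log2 ratios of RS to M were -0.26 at 0.5 U, -0.26 at 1 U and -0.24 on average, and 2 U over 0.5 U in M was -0.45; of 1135, 1089 and 953 bins tested, 145, 204 and 237 were lower in RS (12.8%, 18.7% and 24.9%, against 8.2%, 14.9% and 20.3% of all bins) and 82, 85 and 100 higher (7.22%, 7.81% and 10.5%, against 21%, 14.3% and 15.5%). With no coding gene overlapping, densities were 1.29 in RS at 0.5 U and 1.69 and 1.34 in M at 0.5 and 1 U, the log2 ratio was -0.38 at 1 U and -0.33 on average, and 0 of 209 bins were higher in RS at 0.5 U, against 15% of all bins. With segment bins removed from all bins, densities were 1.25 and 0.886 in RS at 0.5 and 2 U and 1.24 and 1.03 in M at 1 and 2 U. With a fold of 1.5, 83, 94 and 94 of 282 bins were lower in RS (29.4%, 33.3% and 33.3%, against 13.9%, 21.1% and 25.8% of all bins) and 11, 21 and 52 higher (3.90%, 7.45% and 18.4%, against 26.8%, 24.2% and 25%). The mean log2 ratio was -0.26 without 0.5 U, -0.34 without 2 U and -0.57 at equal MNase per cell. Pairings with less enzyme in RS than in M were not among the alternatives. With midpoints within 20 bp, shared calls were 0.567% and 1.25% in RS and 2.13% and 0.677% in M at 0.5 and 1 U. In the other bins they were 0.784% and 2.73% in RS and 3.96% and 1.91% in M. The cause of these shifts was not tested. The number of reads behind each list is unknown.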

Other observations

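The X chromosome had 16 bins without coding genes. Their mean calls over those of 150 other X bins were 0.780, 0.708 and 0.815 in RS from 0.5 to 2 U and 0.827, 0.794 and 0.493 in M. Relative to the autosomal mean they stood at 0.0476, 0.0544 and 0.0742 in RS and at 0.293, 0.172 and 0.0794 in M. With 10 to 66 calls per list, the counting interval held the value of the other X bins in each list but M at 2 U, where it was 0.0532 to 0.114 against 0.161 for the other X bins.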
